A study of Mus musculus with 16 samples.

Results

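The serum microRNAs (miRNAs) of male mice aged 58 weeks were set against those of male mice aged 36 weeks, with 4 mice at each age. These are 8 of the 16 arrays of a study that looked for circulating miRNAs whose levels change as mice grow old, which also holds 4 mice aged 4 weeks and 4 aged 8 weeks. The mice were untreated, and the labels name no strain. Blood was drawn from the heart into serum separator tubes, and RNA from each serum, 1 ng, was labelled with Cy3 and read on a single-colour Agilent microarray of mouse miRNAs. The members are the 1881 mouse miRNAs on that array, read by 4415 probes. Detection calls were made for 364 of these on 1 or more of the 8 arrays and for 25 on all 8, while 1517 had none. Tested were the 285 with a detection call in 3 or more mice of 1 age or more, and 60 of those 285 reached that limit through the mice of 4 or 8 weeks alone. The labels give each mouse its own array, and both ages lay on the same slide.

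miRNAs are short RNAs that guide Argonaute proteins to messenger RNAs, mainly through a seed at their 5′ end, and lower the output of those messages. Serum holds miRNAs bound to proteins, in vesicles and in lipoproteins. Blood cells, platelets and endothelium give much of this pool, and liver, muscle, gut and pancreas add tissue miRNAs such as miR-122, miR-1, miR-133 and miR-375. A serum level therefore reads release, clearance and blood handling together, and fewer releasing cells and less miRNA per cell cannot be told apart.

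Mature sequences are given for 12 miRNAs that the results turn on, 5′ to 3′, from RefSeq on GRCm38.p6, with bases 2 to 8, the seed, in capitals. The first 7 had higher mean signals at 58 weeks and the last 5 lower ones.
miR-6931-5p: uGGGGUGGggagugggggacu
miR-19b-3p: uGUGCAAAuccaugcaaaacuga
miR-146a-5p: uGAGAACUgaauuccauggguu
miR-5119: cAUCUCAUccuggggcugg
miR-215-5p: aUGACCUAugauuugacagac
miR-192-5p: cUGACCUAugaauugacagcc
miR-106b-5p: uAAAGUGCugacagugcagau
miR-99a-5p: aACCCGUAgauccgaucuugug
miR-125b-5p: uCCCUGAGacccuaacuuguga
miR-6978-5p: aAGGGGUGagagagaagcuggug
miR-5113: aCAGAGGAggagagagauccugu
miR-6984-5p: aCUGAAAGgcaaugaaggaggagc
Among these, miR-215-5p and miR-192-5p share the seed UGACCUA.

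The genes of several of these lie within the span of a protein-coding gene in the RefSeq annotation, which was not split here into exon and intron. Spans were matched by position alone, and the strands of miRNA and spanning gene were not compared. Mir6931 (mature miRNA at chr11:102999896-102999916, minus strand) lies within Dcakd, Mir5119 (chr11:98262638-98262656, plus strand) within Cdk12, a kinase gene of transcription elongation, and Mir215 (chr1:185313610-185313630, plus strand) within Iars2. Mir106b (chr5:138165787-138165807, minus strand) lies within Mcm7, a gene of the replicative helicase. Mir6978 (chr17:57217201-57217223, minus strand) lies within the complement gene C3, Mir5113 (chr15:80940049-80940071, plus strand) within Tnrc6b, a gene of the silencing complex, and Mir6984 (chr19:3288925-3288948, plus strand) within Mrpl21. Genes with names starting in Mir were left out of this search, so a host gene with such a name would not appear. No other gene of that annotation spans Mir146 (chr11:43374435-43374456, minus strand), Mir192 (chr19:6264857-6264877, plus strand) or Mir99a (chr16:77598940-77598961, plus strand). The same holds for the pairs Mir19b-1 (chr14:115044358-115044380, plus strand) with Mir19b-2 (chrX:52741991-52742013, minus strand) and Mir125b-1 (chr9:41581940-41581961, plus strand) with Mir125b-2 (chr16:77646279-77646300, plus strand).

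1 array stood apart from the other 7. On 36-week replicate 4 the standard deviation (SD) of the negative-control spots, a measure of background, was 59.3 intensity units, against 2.23 to 4.45 on the others. Feature Extraction marked that array for evaluation, and 4.48% of its miRNA spots carried an outlier flag (2.32% to 3.47% elsewhere). Its weakest detected miRNA had a scaled log2 signal of 7.66, against -1.82 to 3.58 on the other 7 arrays, and 114 of the 285 tested miRNAs lay at the floor of 1.92 there. Its log2 signals over the 285 miRNAs correlated with those of the other 36-week arrays at r = 0.08, 0.21 and 0.42, while those 3 correlated with each other at 0.81 to 0.95. These are correlations across miRNAs within pairs of arrays, and miRNAs are not independent replicates. The second largest count at the floor, 103 miRNAs, was that of 58-week replicate 3, which had the lowest background. Results below are given with and without 36-week replicate 4. The part of its background in any of them was not tested.

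**Figure D1:**
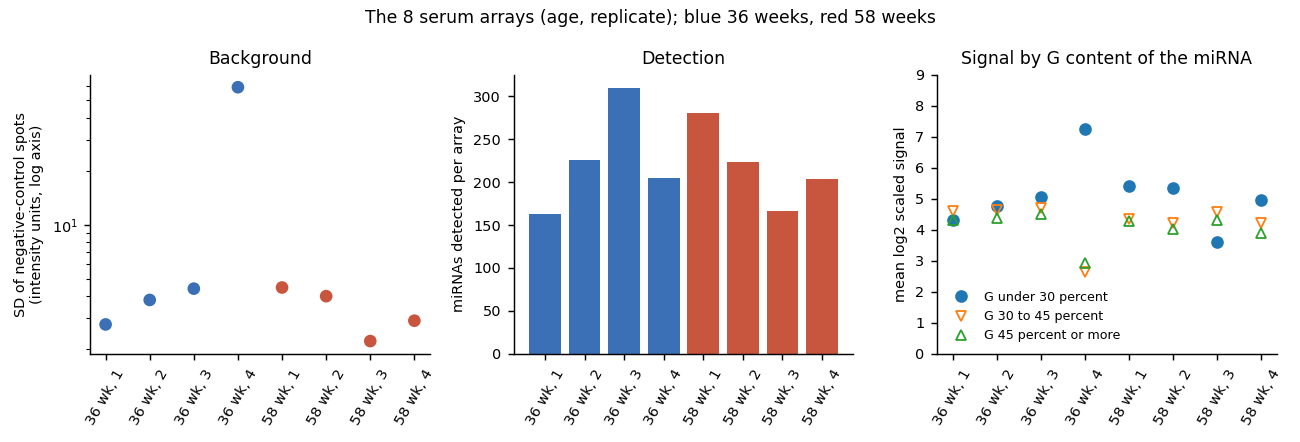
The 8 serum arrays by age and replicate, with the SD of negative-control spots on a log axis (left), the number of miRNAs detected (middle) and the mean log2 scaled signal of tested miRNAs in 3 classes of guanine content (right). On 36-week replicate 4 the background SD was 59.3 and the mean signal of miRNAs under 30% guanine was 7.23, both above all other arrays.

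Similar numbers of miRNAs were detected at both ages. The counts were 163, 226, 310 and 205 on the 36-week arrays and 281, 224, 167 and 204 on the 58-week arrays. The ages overlapped fully, with means of 226 ± 61.8 (SD, n = 4) and 219 ± 47.6 (2-sided exact permutation p = 0.857, smallest possible p = 0.0286). Without 36-week replicate 3 the difference of -7 became 21, and without 58-week replicate 3 it became 10.3. All 4 mice of an age shared 42 detected miRNAs at 36 weeks and 102 at 58 weeks, and 99 miRNAs were detected on every 36-week array but replicate 4. In 3 or more mice 205 miRNAs were detected at 36 weeks, 196 at 58 weeks and 176 at both.

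The signal that the scaling removed was lower at 58 weeks on average. The log2 of the 75th percentile signal before scaling was 8.88, 9.74, 9.69 and 9.49 at 36 weeks and 9.23, 8.74, 9.05 and 8.83 at 58 weeks. The ages overlapped through 36-week replicate 1, and the means of 9.45 ± 0.40 and 8.96 ± 0.22 did not differ beyond the threshold (exact permutation p = 0.0857). Without that array, the only one through which the ages overlapped, the difference was -0.68 instead of -0.49. Its exact permutation p of 0.0286 is the smallest that the remaining arrays allow, and the array was left out with its value known. The labels state that the same mass of RNA entered each reaction.

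Red blood cells are a usual source of serum miRNA, and miR-451a, a miRNA of maturing red cells, was detected on all 8 arrays. The log2 ratio of miR-451a to miR-23a-3p, a common index of red cell RNA, was 2.67, 3.20, 4.55 and 2.62 at 36 weeks and 2.59, 2.71, 3.08 and 2.54 at 58 weeks. The value of 36-week replicate 3 was the highest, and the ages overlapped over the other 7 arrays. On 36-week replicate 3 the reference miR-23a-3p had its lowest signal, so the high ratio there does not show the most miR-451a. The means were 3.26 ± 0.90 and 2.73 ± 0.24 (SD, n = 4 each, exact permutation p = 0.257). With miR-103-3p as the reference the difference of -0.53 turned to 0.45, so no direction is given for red cell RNA. That reference was detected on 3 arrays at 36 weeks and on 1 at 58 weeks, and lay at the floor on 36-week replicate 4.

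No miRNA passed the test between 58 and 36 weeks. With limma over all 16 arrays, 0 of 285 (0%) had a Benjamini-Hochberg adjusted p under 0.05, and the smallest adjusted p was 0.717. At an unadjusted p under 0.05 there were 5, or 1.75% of those tested, and all 5 had higher means at 58 weeks. A fit on the 8 arrays alone also called 0, with 11 at an unadjusted p under 0.05 (smallest adjusted p = 0.731). Over the 285 the median log2 difference, 58 minus 36 weeks, was -0.52, with 88 miRNAs higher, 186 lower and 11 at 0. That median rested on 36-week replicate 4: without it the median was 0.30, with 185 of 279 tested miRNAs higher and 83 lower. It also moved with the scaling, to -0.12 under quantile normalization and -0.90 with no scaling. The spread between mice at 36 weeks came largely from the same array, since the median SD over miRNAs was 1.71 at 36 weeks, 0.495 without replicate 4 and 0.556 at 58 weeks.

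The smallest p among the higher miRNAs was that of miR-6931-5p. Its log2 scaled signal was 5.96, 5.65, 5.25 and 1.92 at 36 weeks and 7.29, 7.09, 6.96 and 7.11 at 58 weeks. All 58-week arrays lay above all 36-week arrays, and on 36-week replicate 4 it was not detected and lay at the floor. The difference was 2.42 ± 0.77 (SE, limma unadjusted p = 0.00655, adjusted p = 0.717) and 1.71 ± 0.52 without that array (unadjusted p = 0.00557). Both of its probes were higher at 58 weeks.

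Next came miR-375-3p, a miRNA of pancreatic islets and gut epithelium that tunes insulin release. Its log2 signal was 6.46, 4.76, 4.31 and 4.59 at 36 weeks and 6.50, 6.65, 6.49 and 6.97 at 58 weeks. The ages did not overlap, although 36-week replicate 1 came close to the 58-week arrays, and it was not called detected on 36-week replicate 4. The difference was 1.62 ± 0.61 (SE, limma unadjusted p = 0.0177, adjusted p = 0.717), and 1.69 without 36-week replicate 4. In that second fit, with scaling and floor recomputed, the ages overlapped, so their separation depended on the scaling. On the 8 arrays alone and without 36-week replicate 1, the array nearest to the 58-week values, it was the 1 miRNA that passed (adjusted p = 0.0242), a fit added after the data were seen.

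The miRNAs with the next ranks were low on 36-week replicate 3 as well as on replicate 4. The signal of miR-19b-3p, a member of the miR-17 cluster, was 5.70, 5.23, 1.92 and 1.92 at 36 weeks and 6.09, 5.23, 5.99 and 5.87 at 58 weeks. That of miR-146a-5p, which NF-kB induces and which restrains Toll-like receptor signalling, was 5.08, 4.65, 1.92 and 1.92 against 5.31, 4.09, 5.82 and 5.80. Each was detected in 2 of the 36-week mice and in all 4 of the 58-week mice, and over the mice with detection the ages overlapped. The differences were 2.10 ± 0.81 and 1.86 ± 0.80 (SE, limma unadjusted p = 0.0201 and 0.0336). Without 36-week replicate 4 they were 1.54 and 1.40.

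The same array pattern held for miR-215-5p, a p53-induced miRNA of gut epithelium. Its log2 signal was 5.35, 3.66, 1.92 and 1.92 at 36 weeks and 4.12, 4.87, 5.11 and 4.97 at 58 weeks. The highest single value was that of a 36-week mouse, so the ages overlapped. The difference was 1.55 ± 0.73 (SE, limma unadjusted p = 0.05005) and 1.15 without 36-week replicate 4, and 1 of its 2 probes had the same sign as the miRNA.

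Among all tested miRNAs, miR-5119 alone had a detection call in 3 or more mice of one age and in 0 of the other. Its log2 signal was 3.05, 2.80, 3.42 and 4.80 at 36 weeks, none of them called detected, and 4.69, 4.71, 4.61 and 4.62 at 58 weeks, all of them called detected. The 58-week arrays lay within a narrow band above the first 3 of the 36-week arrays and below replicate 4. On replicate 4 the weakest detected miRNA lay at 7.66, so the missing call there does not show a lower level. Because it was not detected at 36 weeks, the size is a bound: at 58 weeks the signal was at least 1.32-fold higher (limma adjusted p = 0.717), and at least 3.36-fold higher without 36-week replicate 4. This bound sets the 58-week mean against the weakest detected signal of each 36-week array or the miRNA's own signal, whichever was higher. All 3 of its probes were higher at 58 weeks.

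The other 6 of the 12 higher miRNAs with the smallest p were miR-106b-5p (1.48 ± 0.72), miR-211-3p (1.22 ± 0.61), miR-221-3p (1.07 ± 0.54), miR-15a-5p (1.47 ± 0.74), miR-24-3p (1.76 ± 0.89) and miR-574-5p (1.70 ± 0.90), as log2 differences with SE. All 6 lay at the floor on 36-week replicate 4, and without it their differences were 0.92, 0.76, 0.61, 0.79, 0.83 and 0.94. The 58-week arrays lay above all 36-week arrays for miR-211-3p, miR-574-5p and miR-221-3p, an endothelial and progenitor miRNA that targets Cdkn1b and Kit. The signal of miR-221-3p was 4.55, 4.61, 4.60 and 1.92 at 36 weeks and 5.02, 4.86, 5.15 and 4.92 at 58 weeks, so that its order did not depend on the background array.

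Among miRNAs with lower means at 58 weeks, 0 of 285 had an unadjusted p under 0.05. The smallest p was that of miR-199b-5p, a miRNA of connective tissue and heart, with 3.07, 3.67, 3.34 and 6.04 at 36 weeks and 3.17, 2.24, 2.79 and 2.70 at 58 weeks. Its highest value was that of 36-week replicate 4, which was not called detected, and it was detected on 1 array of each age. The difference of -1.30 ± 0.62 (SE, limma unadjusted p = 0.0514) was -0.42 without that array. For miR-125b-5p, a relative of lin-4 with high levels in many tissues, the signal was 7.81, 8.38, 8.28 and 7.34 at 36 weeks and 7.40, 7.14, 7.59 and 7.50 at 58 weeks. The 58-week arrays lay below the first 3 of the 36-week arrays, and replicate 4, where it was not called detected, lay among them. The difference was -0.54 ± 0.38 with all arrays and -0.54 without replicate 4, and 0.78 under quantile normalization.

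The 1 miRNA whose 58-week arrays all lay below its 36-week arrays was miR-99a-5p, which shares a host transcript with let-7c and targets Mtor and Igf1r. Its log2 signal was 3.74, 4.66, 3.95 and 4.00 at 36 weeks and 3.56, 2.57, 3.33 and 3.06 at 58 weeks. It was detected on 3 and 2 arrays, and the ages were separate with or without 36-week replicate 4. The difference was -0.96 ± 0.49 (SE, limma unadjusted p = 0.0667) and -0.78 without that array. It came from 1 of its 2 probes, the other lying at the floor at both ages.

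4 dim miRNAs of high miRBase numbers, for which little is known, showed a shared pattern. The signal of miR-5113 was 4.03, 4.56, 4.66 and 1.92 at 36 weeks and 2.31, 1.92, 3.39 and 2.33 at 58 weeks. That of miR-6978-5p was 3.55, 3.76, 3.79 and 1.92 against 1.92, 1.92, 2.66 and 1.92. These 2, with miR-5112 and miR-6984-5p, were detected on 2 or 3 of the 36-week arrays, on 58-week replicate 3 and on no other 58-week array. The signal of miR-5112 was 3.91, 3.88, 4.19 and 1.92 at 36 weeks and 1.92, 2.04, 3.36 and 1.92 at 58 weeks. For miR-6984-5p it was 3.65, 4.44, 4.24 and 1.92 against 2.05, 1.92, 3.21 and 1.92. At 36 weeks all 4 lay at the floor on replicate 4 alone, and without that array the ages did not overlap. The differences were -1.30, -1.15, -1.17 and -1.28 for miR-5113, miR-6978-5p, miR-5112 and miR-6984-5p, and -1.63, -1.29, -1.41 and -1.56 without replicate 4. With normexp background correction all 4 turned, to 0.02, 0.15, 0.19 and 0.12.

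**Figure D2:**
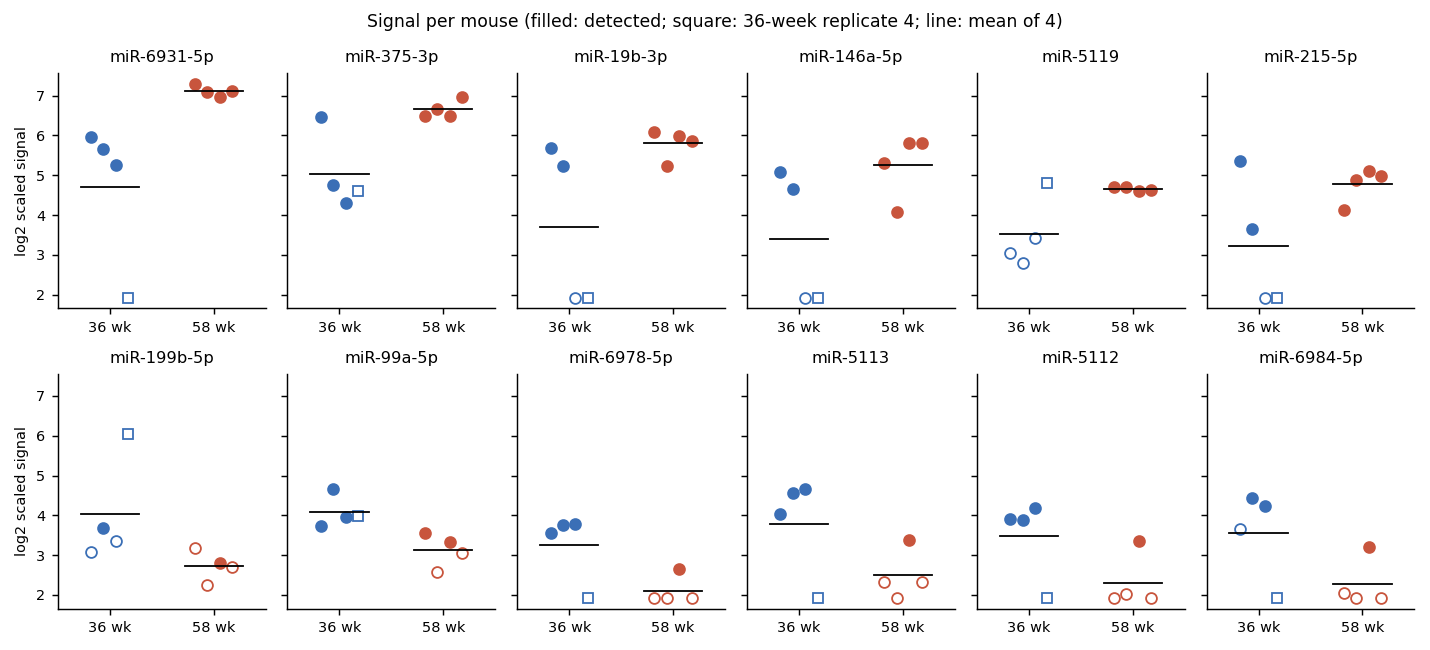
Log2 scaled signal in each mouse for the 6 higher (top row) and 6 lower (bottom row) miRNAs with the smallest p. Filled symbols mark detection, squares mark 36-week replicate 4, and lines are the means of 4; at 58 weeks the values of miR-5119 span 4.61 to 4.71.

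The arrays of the ages did not overlap for 11 miRNAs with higher signals at 58 weeks (3.86% of 285) and for 1 with lower signals (0.351%). Without 36-week replicate 4 the counts were 10 of 279 (3.58%) and 20 of 279 (7.17%). Higher in both were miR-6931-5p, miR-221-3p, miR-466i-5p and miR-468-3p, the last named after its values were seen. The other miRNAs separate and higher with all arrays, among them miR-375-3p, miR-211-3p and miR-574-5p, overlapped once scaling and floor were recomputed without that array. Lower in both was miR-99a-5p.

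The fit over all ages without 36-week replicate 4 called 0 of 279 (0%), with a smallest adjusted p of 0.177 (limma). It had 7 at an unadjusted p under 0.05 (2.51%). The 4 higher (1.43%) were miR-5119 (limma unadjusted p = 0.000634), miR-6931-5p, miR-375-3p and the lymphocyte miRNA miR-342-3p (difference 1.13, limma unadjusted p = 0.0263). The 3 lower (1.08%) were miR-5113, miR-5112 and miR-1a-3p (limma unadjusted p = 0.0229, 0.0369 and 0.0411). On the 7 remaining late arrays alone, a fit added after the data were seen, 2 of 279 passed (0.717%) and 31 had an unadjusted p under 0.05 (11.1%), 15 of them higher (5.38%) and 16 lower (5.73%). Those that passed were miR-5119, higher, and miR-6978-5p, lower at -1.29 ± 0.17 (SE), each with an adjusted p of 0.0368. The 58-week signal of miR-6978-5p lay at the floor on 3 of 4 arrays and only 1 of its 2 probes differed, so its size and its SE depend on the floor. The higher call of miR-5119 was also the 1 call of the 8 late arrays with the deposited total signal (limma adjusted p = 0.00245). There it was listed at 0.1 intensity units on all 4 of the 36-week arrays and at 4.10 to 7.73 at 58 weeks. The same listed value on all 36-week arrays holds no spread between mice. That p therefore repeats the detection calls and is no separate support.

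**Figure D3:**
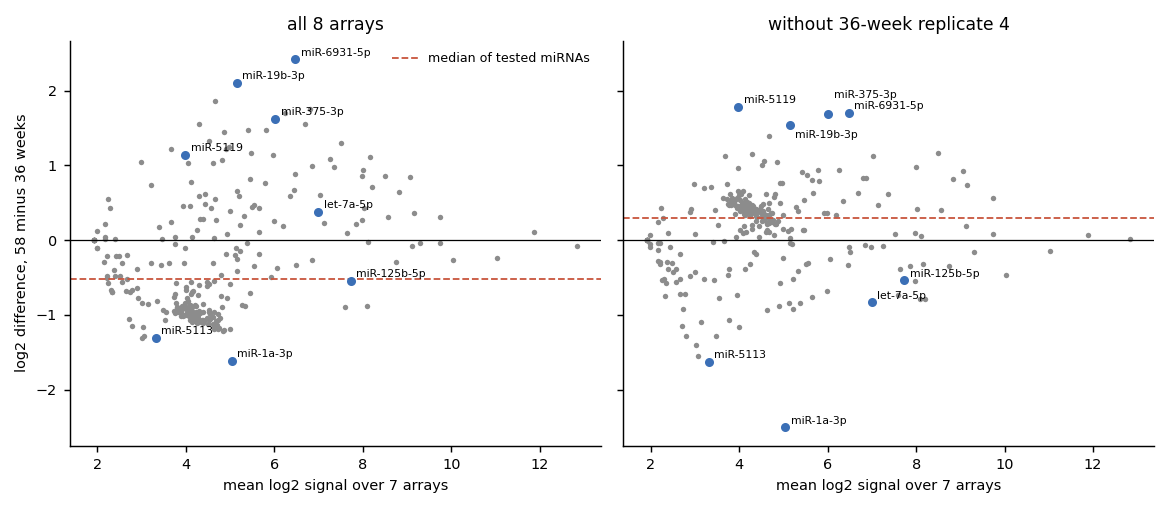
Log2 difference, 58 minus 36 weeks, of each tested miRNA against its mean log2 signal over the 7 arrays other than 36-week replicate 4, with all 8 arrays (left) and without that array (right). The dashed median was -0.52 on the left and 0.30 on the right, and the dense group near a mean of 4 to 5 moved from below 0 to above it.

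The signal of 36-week replicate 4 went with base composition. RefSeq held a mature sequence for 244 of the 285 tested miRNAs. Among the 154 with under 30% guanine, the mean log2 signal was 7.23 on that array and 3.59 to 5.42 on the other 7. It was 2.65 against 4.20 to 4.71 for the 41 with 30% to 45%, and 2.94 against 3.89 to 4.52 for the 49 with 45% or more. The median difference between the ages in these 3 classes was -0.87, 0.02 and 0, and without the array it was 0.40, -0.04 and -0.02. The rank correlation of guanine content with the difference across the 244 miRNAs was 0.58 with the array and -0.43 without it. The points share the same 8 arrays, and this is a description with no test. The low-guanine class also held the lowest mean of another array, 3.59 on 58-week replicate 3. Of the miRNAs printed above, miR-6931-5p, miR-6978-5p, miR-5113, miR-6984-5p and miR-5119 hold 66.7%, 52.2%, 39.1%, 37.5% and 31.6% guanine, and miR-19b-3p, miR-215-5p and miR-125b-5p hold 17.4%, 19.0% and 18.2%.

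miRNAs were then grouped by their usual source, each list beside the median of all tested miRNAs, -0.52 with all arrays and 0.30 without 36-week replicate 4. No member of any list passed the test (0%).
Of 7 listed red cell miRNAs 4 were tested, and their median was 0.24 with all arrays, 0.08 without replicate 4 and -0.25 with no scaling. Of these, miR-451a, miR-486a-5p and miR-92a-3p were detected on all 8 arrays, and miR-16-5p differed by 1.11 with all arrays and by -0.31 without replicate 4, where it lay at the floor.
Of 14 platelet and endothelial miRNAs 11 were tested, 9 with higher and 2 with lower means, the same numbers with and without replicate 4 (medians 0.65 and 0.36). In this list miR-221-3p and miR-24-3p had the lowest p. Some members were low on 36-week replicate 3, such as miR-23a-3p at 9.33, 9.07, 7.04 and 8.33 at 36 weeks and 9.17, 8.82, 9.39 and 8.96 at 58 weeks. Apart from 36-week replicates 3 and 4, the ages overlapped for this miRNA.
Of 9 leukocyte miRNAs 6 were tested (4 higher, and 5 without replicate 4, with medians of 0.60 and 0.88). Next to miR-146a-5p stood miR-223-3p of neutrophils and platelets, at 9.18, 8.57, 6.10 and 8.35 at 36 weeks and 8.79, 8.93, 9.05 and 8.87 at 58 weeks. Its difference of 0.86 ± 0.64 (SE, limma unadjusted p = 0.201) thus came mainly from 36-week replicate 3, and the ages overlapped.

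Tissue miRNAs were fewer. Of 13 miRNAs of epithelium, gut and pancreas 4 were tested, miR-375-3p, miR-215-5p, miR-205-5p and miR-192-5p, and all 4 had higher means at 58 weeks with and without 36-week replicate 4 (medians 0.99 and 1.1). In addition to the first 2, miR-205-5p, a miRNA of stratified epithelium, differed by 0.43 and miR-192-5p, of gut, liver and kidney, by 0.43, and by 1.06 and 0.80 without that array. With no scaling between arrays these differences were -0.054 and -0.058. Under quantile normalization, no scaling and the deposited total signal the medians of these 4 were 1.44, 0.54 and 1.63. Detection calls for miR-215-5p and miR-205-5p were made on 2 arrays each at 36 weeks and on 4 each at 58 weeks.
Of 7 miRNAs of striated muscle 3 were tested, and all 3 had lower means at 58 weeks with and without replicate 4 (medians -0.89 and -0.78), while under quantile normalization their median was 0.16. The signal of miR-133a-3p was 7.41, 9.39, 7.58 and 7.91 at 36 weeks and 7.15, 6.22, 7.82 and 7.55 at 58 weeks. 36-week replicate 2 was the highest and 58-week replicate 2 the lowest, with the other 6 arrays overlapping. The widest spread was that of miR-1a-3p, at 6.84, 7.90, 5.18 and 1.92 against 2.32, 1.92, 5.93 and 5.20. Detection calls were made in 3 of the younger and 2 of the older mice, and its difference of -1.62 ± 1.26 (SE, limma unadjusted p = 0.219) was -2.50 without replicate 4 (unadjusted p = 0.0411).
In liver, miR-122-5p, the main hepatocyte miRNA, was 7.14, 8.80, 6.35 and 1.92 at 36 weeks and 6.94, 7.54, 7.35 and 6.72 at 58 weeks, so the ages overlapped, and its difference of 1.09 was -0.08 without replicate 4. Of 13 brain miRNAs 2 were tested, miR-128-3p and miR-212-3p, with differences of 0.78 and -0.60, and 0.48 and 0.14 without that array. Of 11 connective tissue miRNAs 7 were tested, 1 higher and 6 lower, and 3 higher and 4 lower without replicate 4. A list of 18 miRNAs tied to ageing and inflammation had 11 tested members, 8 of them higher, and 7 without replicate 4 (medians 0.25 and 0.13). It shares miR-146a-5p, miR-221-3p and other members with the lists above.

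**Figure D4:**
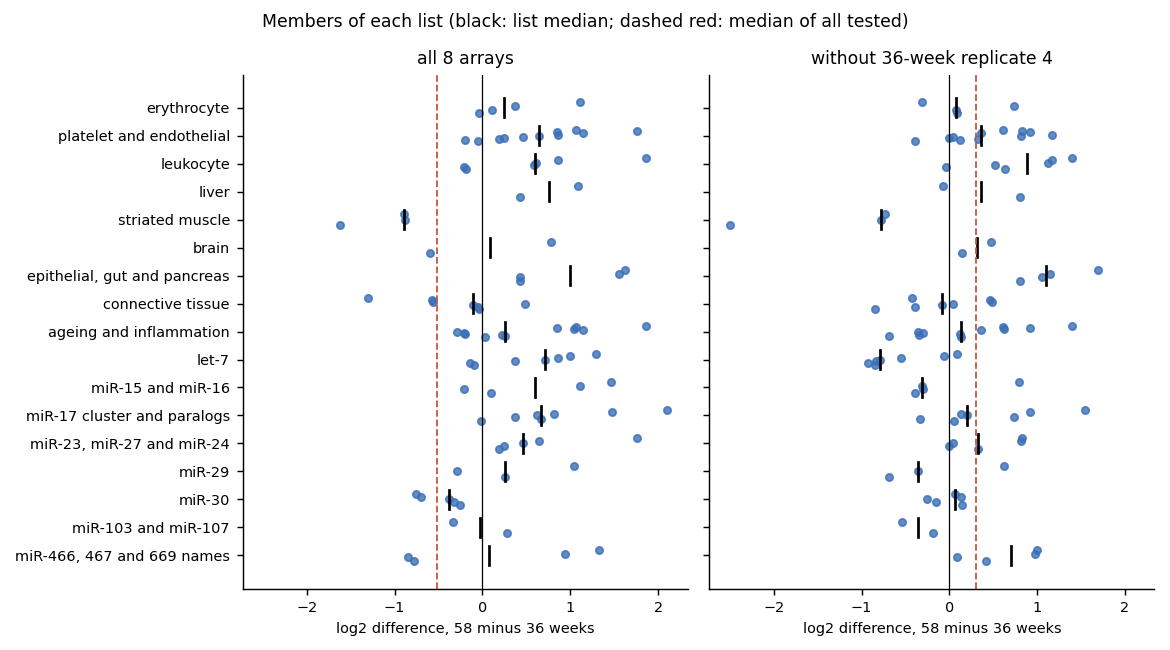
Log2 difference, 58 minus 36 weeks, of each tested member of 17 lists (points) with the list median (black) and the median of all tested miRNAs (dashed), with all 8 arrays (left) and without 36-week replicate 4 (right). The let-7 median moved from 0.72 to -0.79, while the epithelial members were all above 0 and the muscle members all below 0 in both panels.

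The families showed which directions rested on the background array. All 7 tested let-7 miRNAs of the 5p arm, which hold back Lin28, Ras and Myc messages, lay at the floor on 36-week replicate 4, where their mean log2 signal was 1.92. On the other arrays that mean was 7.24, 7.29 and 7.31 at 36 weeks and 5.97, 6.99, 6.70 and 6.38 at 58 weeks, so the 3 remaining 36-week arrays lay above all 58-week arrays. Accordingly 5 were higher and 2 lower with all arrays (median 0.72), and 1 was higher and 6 were lower without replicate 4 (median -0.79). The 3p arms let-7b-3p and let-7d-3p, tested but not in the list, went the other way, at 8.89 and 9.19 on replicate 4, with differences of -0.94 and -0.35, and 0.39 and 0.87 without it. The miR-15 and miR-16 family turned likewise, from 3 higher of 4 (median 0.60) to 1 of 4 (median -0.31). The miR-30 family went from 0 higher of 5 (median -0.38) to 3 of 5 (median 0.06). Beside the median of all tested miRNAs, -0.52 and 0.30, the miR-30 family moved in reverse, from 3 of 5 above it to 0 of 5. The miR-29 family, regulators of collagen messages, went from 2 higher of 3 to 1 of 3. Of 30 listed miRNAs of the imprinted Dlk1-Dio3 cluster 1 was tested, miR-494-3p, and its difference of 0.13 changed sign without replicate 4. The list is not complete: miR-487b-5p and miR-485-3p, whose genes lie nearby on chromosome 12, differed by -1.22 and -1.003, and by 0.22 and 0.43 without replicate 4. The pair miR-103-3p and miR-107-3p had 1 higher and 1 lower, and 2 lower without it.

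Listed members of the miR-17 family and of the miR-23, miR-27 and miR-24 family mostly kept their sign. Set against the median of all tested miRNAs they did so less. With all arrays 7 of 7 and 5 of 5 lay above that median, and without 36-week replicate 4 only 3 of each did. Of 12 miRNAs of the miR-17 cluster and its paralogs, which promote proliferation, 7 were tested, and 6 were higher with and without 36-week replicate 4 (medians 0.67 and 0.20, the second below the median of all tested miRNAs). The 3p arms miR-18a-3p and miR-18b-3p, not in the list, differed by -0.95 and -0.998, and by 0.55 and 0.38 without that array. All 5 of the miR-23, miR-27 and miR-24 family were higher, and 4 of 5 without that array (medians 0.46 and 0.33). The Mir23a, Mir27a and Mir24-2 genes lie together at chr8:84208563-84208896 (plus strand), and their 3 miRNAs were higher both ways, but miR-24-3p has the same sequence from Mir24-1 on chromosome 13, next to Mir27b. For miR-27b-3p the difference was 0.25, and -0.0065 without replicate 4. These arms, neighbours and miR-27b-3p were named after their values were seen. Of 61 miRNAs with the family names miR-466, miR-467, miR-669 and miR-297, many of them copies in the Sfmbt2 gene, 4 were tested, 2 of them higher, and 4 without replicate 4. At least 2 of the 4 lie elsewhere, miR-669n within Slc30a7 and miR-467f within Fxr2. One of these, miR-466i-5p, was 7.83, 7.29, 7.55 and 6.87 at 36 weeks and 8.23, 8.36, 8.10 and 8.60 at 58 weeks. Its ages did not overlap, with a difference of 0.94 ± 0.66 (SE, limma unadjusted p = 0.177).
Seeds shared by at least 2 tested miRNAs formed 21 groups with 54 members. In the seed group AAAGUGC all 4 members were higher (miR-106b-5p, miR-20a-5p, miR-20b-5p and miR-93-5p), and 3 of 4 without replicate 4. All 4 lay at the floor of 1.92 on that array. Without it only 1 of 4 lay above the median of all tested miRNAs (group median 0.16 against 0.30). In the pair with the seed UGACCUA both were higher with and without that array. miRNAs entered in miRBase late, numbered 5000 or above, made up 110 of the 285. Of these 19 were higher and 87 lower, and without replicate 4 there were 75 higher and 27 lower of 106 (medians -0.95 and 0.35). Over all tested miRNAs 88 were higher and 186 lower of 285, and without replicate 4 185 and 83 of 279 (medians -0.52 and 0.30). Without that array the late-numbered miRNAs thus lay near all tested ones.

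The 10 brightest signals over the 8 arrays were those of miR-3963, miR-451a, miR-5100, miR-3473b, miR-6366, miR-486a-5p, miR-92a-3p, miR-709, miR-1224-5p and miR-21a-5p, all detected on all 8 arrays. Probe signals of different miRNAs are not set against each other, so this gives no order of abundance. The signal of the red cell miRNA miR-486a-5p was 9.27, 9.28, 10.86 and 9.48 at 36 weeks and 9.75, 9.50, 10.11 and 9.36 at 58 weeks. That of miR-21a-5p, an abundant miRNA of many tissues, was 9.47, 9.24, 7.24 and 8.11 against 9.38, 9.32, 9.23 and 9.51. The ages overlapped for both, and 36-week replicate 3 was the highest for the first and the lowest for the second.

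Whether the late step, from 36 to 58 weeks, differed from the early step, from 4 to 8 weeks, was tested by the difference of the steps, which share no array and each lie on 1 slide. No miRNA passed: 0 of 285 (0%), smallest adjusted p = 0.955 (limma), with 5 at an unadjusted p under 0.05 (1.75%). At 4 and 8 weeks, on 1 slide, the mean signal of miR-6931-5p was 6.95 ± 1.08 and 6.51 ± 0.50 (SD, n = 4 each). At 36 and 58 weeks, on another slide, it was 4.69 ± 1.87 and 7.12 ± 0.14, so 8 and 36 weeks are not compared. Its early step was -0.44, its late step 2.42 and their difference 2.86 ± 1.09 (SE, limma unadjusted p = 0.0188). In order of p miR-6931-5p was followed by miR-19b-3p (difference of the steps 2.99), the cartilage miRNA miR-140-5p (2.54), miR-215-5p (2.39) and miR-181b-5p (1.89). The last was detected on no array at 36 or 58 weeks, and miR-140-5p had a late step of 0.49, so that for these the difference lay in the early step. On 36-week replicate 4 miR-6931-5p, miR-19b-3p and miR-215-5p lay at the floor. Without that array their late steps were 1.71, 1.54 and 1.15, and the differences of the steps given here include it.

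**Figure D5:**
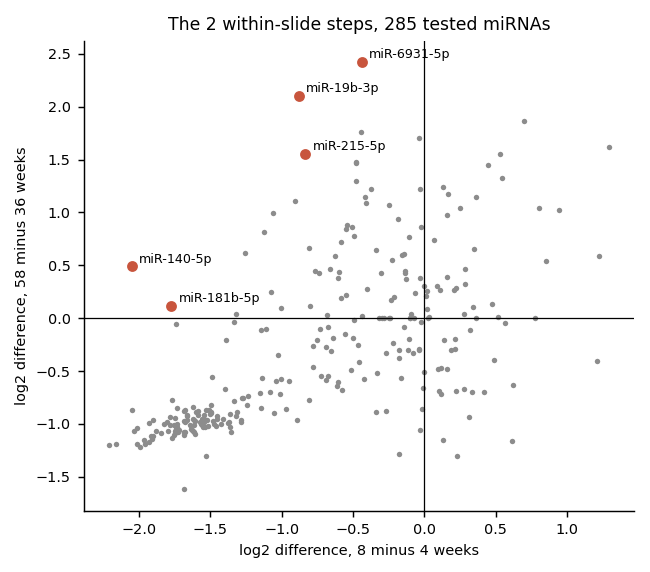
Log2 difference of each of the 285 tested miRNAs in the late step, 58 minus 36 weeks (vertical), against the early step, 8 minus 4 weeks (horizontal). The 5 miRNAs with the smallest p for the difference of the steps are marked, and miR-6931-5p stands at -0.44 and 2.42.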

How the data were processed

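Each deposited file holds the scanner output of 1 array, made with Agilent Feature Extraction 11.5, per the submitters' processing notes. Spot intensities, background-subtracted, as well as outlier flags, detection calls and total signals are the authors' deposited values, per the file headers. No scaling between arrays is recorded there, and precision is limited by the number of arrays.

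From there, spots without outlier flags were averaged per probe, and probes per miRNA. A scale factor per array made the 75th percentile of the 24 miRNAs with detection calls on all 16 arrays equal. Lower values were raised to a floor of 3.79, the median across arrays of the weakest scaled signal called detected, before log2 was taken. Scaling and floor were recomputed where an array was left out. The test was limma's lmFit and eBayes (limma 3.58.1, R 4.3.3), fitted to all 16 arrays with a mean for each age, and Benjamini-Hochberg adjusted p under 0.05 counted as a call. For measures of whole arrays, a 2-sided exact permutation test ran through all 70 assignments. The scripts were tested on simulated data.

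By rule, miRNAs were named if among the 12 lowest p in either direction, the 10 brightest, up to 4 per list, those detected at 1 age only and the 5 with the smallest p for the difference of the steps. Members, lists and tests were chosen with earlier results of these data known. On the slide, 36-week arrays took columns 1 and 2 and 58-week arrays columns 3 and 4, so column and age cannot be told apart, while both ages lay in both rows. Sequences and the genes that span miRNAs are from RefSeq. Alternatives covered scaling, background, filters, floor, probes, variance model, array weights, blocks and left-out arrays.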

Additional observations from a re-analysis of the deposited data

Results flagged for a closer look

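Each set of 4 mice of an age was searched for a single value far from the rest with Dixon's 95% critical value. The sets were those of the whole-array measures and of 55 named miRNAs, many of them named for a small p in these arrays. This marked 17 of 118 sets. The chance number of about 5.9 assumes independent sets without ties, so it is no measure for these. Where all values but the highest lie at the floor the highest is always marked, and a set wholly at the floor never is. Of the 17, 9 were values of 36-week replicate 4 and 5 of 58-week replicate 3.

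On 36-week replicate 4 the log2 of the negative-control SD was 5.89, against 1.47 to 2.13 on the other 36-week arrays. On the same array miR-211-3p, miR-221-3p, miR-574-5p, miR-6978-5p, miR-5112 and let-7i-5p lay at the floor, 1.92, while miR-10b-5p was high at 6.95 and let-7d-3p at 9.19.

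On 58-week replicate 3, the array with the lowest background, miR-6978-5p was 2.66, miR-5112 3.36, miR-6984-5p 3.21 and miR-5107-5p 2.55, each above the other 58-week arrays, which lay at or near the floor, while miR-18b-3p lay at the floor, 1.92, below the others. The muscle miRNA miR-133b-3p was 9.87 on 36-week replicate 2, above the other 3. In the 58-week mice, miR-181b-5p stood at 2.38 on replicate 1 with the others at the floor, and miR-10b-5p was 3.63 on replicate 4, below the others.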

How the results depend on the processing

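Of 42 alternatives, 38 called 0 miRNAs between 58 and 36 weeks. Array weights, whose fit stopped before it converged, called 43, 9 higher and 34 lower, with a weight of 0.0567 for 36-week replicate 4 and 5.54 for 36-week replicate 2. Among fits added after seeing the data, the 8 late arrays with the deposited total signal called 1, and with 1 of those arrays left out the count ran from 0 to 2: 1 without 36-week replicate 1 and 2 without 36-week replicate 4. The difference of the steps called 0 wherever it was run. Scaling by the 75th percentile of all miRNAs was not run, because that percentile was not above 0 on 1 array. The median difference ran from -0.65 to 0.30 with 1 array left out, with 0.30 the value without 36-week replicate 4.

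With 1 array left out the difference in detected miRNAs ran from -28 to 21.0 and that in the 75th percentile signal from -0.68 to -0.39. The first of these signal values had an exact permutation p of 0.0286, the smallest possible with that array left out. The difference in the red cell index ran from -0.75 to -0.10, while miR-103-3p as its reference gave 0.45.

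Replicate numbers name different mice. Deviations of same-numbered arrays from their age means correlated at -0.80, -0.81, 0.42 and 0.55, so the numbers do not pair the arrays, and the fit with the replicate block called 0 (8 at an unadjusted p under 0.05).

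Signs of single miRNAs turned as follows, as log2 differences of 58 minus 36 weeks. With no scaling: miR-181b-5p -0.044, miR-92a-3p -0.12, miR-205-5p -0.054, miR-192-5p -0.058, miR-494-3p -0.23, miR-27b-3p -0.12. Brightest probe: let-7d-3p 0.17, miR-27b-3p -0.012. Quantile normalization: miR-125b-5p 0.78, miR-133a-3p 0.16, miR-133b-3p 0.20, miR-181b-5p -0.17, miR-10b-5p 0.11, miR-29a-3p 0.78, miR-30c-5p 0.28, miR-494-3p -0.31. Deposited total signal, over 16 or 8 arrays: miR-125b-5p 0.72, miR-30b-5p 0.42, miR-140-5p -0.92, miR-10b-5p 0.15, miR-30c-5p 0.72, miR-494-3p -0.38, miR-27b-3p -0.053. Normexp: miR-6978-5p 0.15, miR-5113 0.018, miR-5112 0.19, miR-6984-5p 0.12, miR-5107-5p 0.17, miR-181b-5p -0.025, miR-16-5p -0.011, miR-103-3p 0.16. With 2 times the floor: miR-494-3p -0.12. Array weights: miR-24-3p -0.012, miR-140-5p -0.051, miR-16-5p -0.59, miR-122-5p -1.10, miR-10b-5p 0.24, let-7i-5p -0.12, let-7g-5p -0.69, miR-494-3p -0.18, let-7b-3p 0.90, let-7d-3p 1.04, miR-487b-5p 0.89, miR-485-3p 0.92, miR-18a-3p 0.90, miR-18b-3p 0.82, miR-27b-3p -0.54. With 1 array left out: miR-30b-5p ran from -1.05 to 0.062, miR-16-5p from -0.31 to 1.89, miR-122-5p from -0.078 to 2.03, miR-10b-5p from -0.88 to 0.47, let-7g-5p from -0.064 to 1.62, miR-212-3p from -0.98 to 0.14, let-7b-3p from -1.51 to 0.39, let-7d-3p from -0.76 to 0.87, miR-487b-5p from -1.90 to 0.22, miR-485-3p from -1.71 to 0.43, miR-18a-3p from -1.74 to 0.55, miR-18b-3p from -1.55 to 0.38, miR-27b-3p from -0.0065 to 0.54, miR-30c-5p from -1.04 to 0.14, miR-494-3p from -0.31 to 0.72 (-0.049 without 58-week replicate 1) and miR-103-3p from -0.68 to 0.067 (without 58-week replicate 2). The cause of these turns was not tested.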
